A study of Homo sapiens with 54 samples.

Results

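The kinases described here are the 7 that phosphorylate SR proteins or act beside those that do: *CLK1*, *CLK2*, *CLK3*, *CLK4*, *SRPK1*, *SRPK2* and *DYRK1A*. They were chosen by name, as 7 of the 55906 gene rows listed in each table of mRNA levels, and each was followed across all 18 conditions, with every perturbation set against the control of its own cell line. SR proteins are splicing factors whose tails are rich in arginine and serine (RS domains), and TRA2A and TRA2B are SR-like proteins with such domains on either side of an RNA-binding domain. In the cytoplasm, SRPK1 and SRPK2 phosphorylate RS domains, which allows the import of SR proteins into the nucleus, and in the nucleus the dual-specificity kinases CLK1 to CLK4 phosphorylate them further and release them from nuclear speckles. DYRK1A, a relative of the CLKs, phosphorylates several splicing factors and also LIN52, which starts the assembly of the DREAM repressor of cell cycle genes.

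The 54 RNA-seq libraries came from 4 human cancer cell lines, with 3 replicates per condition. A549 and NCI-H23, both from lung adenocarcinoma, carried Zim3-dCas9, a nuclease-dead Cas9 fused to a repressor domain that silences the promoter a guide points to (CRISPRi), and were collected on day 5 with guides for control loci (Control KD), *TRA2A* (TRA2A KD), *TRA2B* (TRA2B KD) or both genes (TRA2A/B DKD). LN229 and LN319, which the study describes as glioma lines, carried either luciferase (Luc) or *TRA2B* overexpression (TRA2B-OE). They were collected on day 7 after Cas9 with control guides (Control KO) or *TRA2A* guides (TRA2A KO). Luc cells alone were also given *TRA2B* guides (TRA2B KO). Transduced populations rather than clones were used, and mixed populations can hold cells without a knockout. Nothing in the labels says that replicates were separate cultures, so the p-values measure only the spread between these libraries.

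The values are TPM per gene, a unit that corrects for transcript length and is a share of its own library. They pool all isoforms of a gene and keep no record of depth, and the spread between replicates is the only measure of precision. A kinase was called changed at an adjusted p under 0.05 in limma, and rose or fell is written only of called values. Log2 fold changes are on the log2(TPM + 0.1) scale after scaling between libraries, and are given with their standard error (SE).

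TRA2 proteins bind purine-rich RNA with AGAA or similar motifs and promote the inclusion of exons that hold them, so the exons of the kinases were searched for AGAA. In the GENCODE v44 annotation (GRCh38), the canonical coding sequence of *SRPK1* (chromosome 6, 35832966 to 35921342, minus strand) spans 1965 bases and held AGAA 31 times on the transcribed strand, or 15.8 per kb. Of 19287 canonical coding sequences, 10.5% were at least as dense, and their median was 7.71 per kb. *SRPK2* followed at 14.8 per kb (13.0% at or above), and *CLK4*, *CLK1*, *CLK3*, *CLK2* and *DYRK1A* lay between 11.8 and 8.84 per kb. A match is a description of the letters and not a binding site. Exons are shown 5′ to 3′ on the transcript strand, with every AGAA in capitals, overlaps included. The first 2 exons are the densest wholly coding ones of at least 50 bases in *SRPK1* and in its paralog *SRPK2*, and the last is exon 4 of *CLK1*, whose skipping shifts the reading frame and gives the truncated, inactive form of that kinase.
SRPK1 exon 10: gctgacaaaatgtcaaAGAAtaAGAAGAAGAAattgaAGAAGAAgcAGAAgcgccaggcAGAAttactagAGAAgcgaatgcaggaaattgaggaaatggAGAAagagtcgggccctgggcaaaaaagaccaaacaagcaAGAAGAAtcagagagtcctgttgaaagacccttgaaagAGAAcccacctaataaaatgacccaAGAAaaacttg
SRPK2 exon 10: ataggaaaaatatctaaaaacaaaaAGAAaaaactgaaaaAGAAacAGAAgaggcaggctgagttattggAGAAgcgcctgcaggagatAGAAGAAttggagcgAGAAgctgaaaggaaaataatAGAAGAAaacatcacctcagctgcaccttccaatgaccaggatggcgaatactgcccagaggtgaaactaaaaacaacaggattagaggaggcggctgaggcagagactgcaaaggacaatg
CLK1 exon 4: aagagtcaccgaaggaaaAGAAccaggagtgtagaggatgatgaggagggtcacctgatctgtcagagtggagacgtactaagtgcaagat

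Exon 10 of *SRPK1*, at chr6:35870281-35870494 on the minus strand, held 14 copies in 214 bases. At 6.54 per 100 bases it was matched or exceeded by 0.251% of 147616 wholly coding exons of 50 to 300 bases, which had a median of 0.73. Exon 10 of *SRPK2*, at chr7:105143084-105143330 on the minus strand, held 9 in 247 bases (3.64 per 100 bases, 3.06% at or above). Both exons were chosen as the densest of their gene, whereas the exons compared were not. The percentages are thus those of a selected maximum. Exon 4 of *CLK1*, at chr2:200860125-200860215 on the minus strand, held 1 in 91 bases, a length that leaves 1 base beyond whole codons. Gene-level TPM cannot say how often any of these exons was included.

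In the control libraries, *CLK2* had the highest mean of the kinases in 3 of the 4 cell lines and *DYRK1A* the lowest in all 4. In LN319 Luc Control KO, the mean level of *CLK2* was 131 ± 8.15 TPM (SD, n = 3), above *CLK1* at 60.4, *CLK3* at 46.9, *SRPK1* at 42.8, *SRPK2* at 28.0, *CLK4* at 20.0 and *DYRK1A* at 2.61. Only *CLK3* and *SRPK1* overlapped among neighbours in that order. In LN229 Luc Control KO the order of mean TPM was *CLK2* (75.7), *CLK3* (63.6), *CLK1* (51.4), *SRPK2* (43.4), *SRPK1* (34.5), *CLK4* (23.3) and *DYRK1A* (1.45), with overlaps between *CLK1* and *SRPK2* and between *SRPK1* and *CLK4*. In NCI-H23 Control KD, *CLK2* (69.5 TPM) and *SRPK1* (68.3 TPM) could not be ordered, and both lay above *CLK3* (33.3), *SRPK2* (24.5) and *CLK1* (24.2), whose ranges overlapped in turn. *CLK4* was at 9.003 and *DYRK1A* at 1.11 TPM. In A549 Control KD, *SRPK1* (40.0 TPM), *SRPK2* (33.1), *CLK2* (31.3) and *CLK3* (30.9) overlapped in turn. They were followed by *CLK1* (21.5) and *CLK4* (13.8), which also overlapped, and by *DYRK1A* (0.893). Differences between lines were not tested, because each table was scaled by itself.

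**Figure D1:**
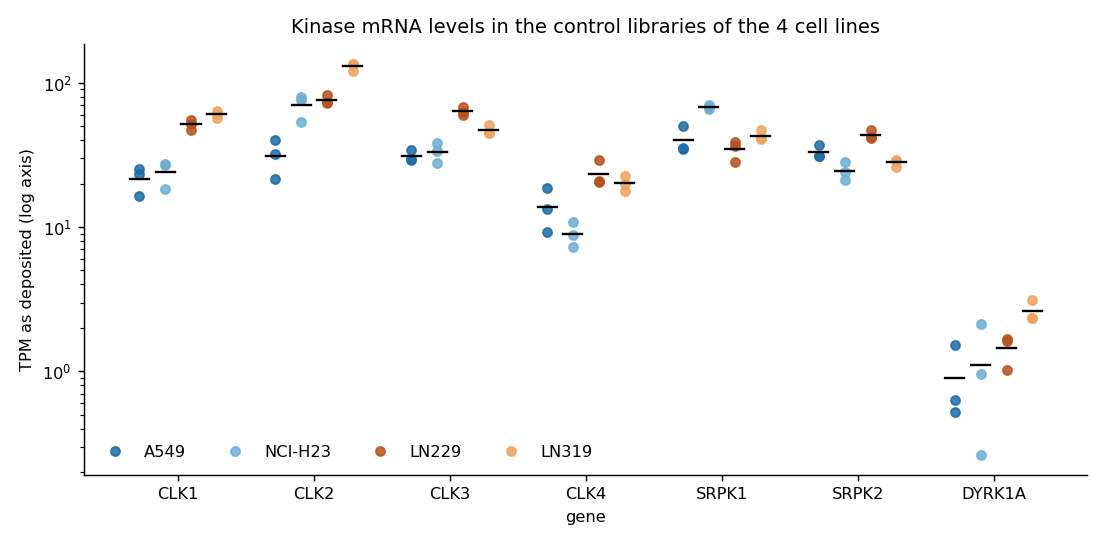
TPM as deposited (log axis) of the 7 kinases in the 3 control libraries of each cell line, with points for libraries and lines for means. *CLK2* reaches 131 TPM in LN319, whereas *DYRK1A* lies between 0.263 and 3.14 TPM in all 12 control libraries.

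Before the kinases were compared, the targeted genes were checked. In A549, *TRA2A* fell from 75.1 ± 5.08 TPM to 7.18 ± 2.81 in TRA2A KD and 10.4 ± 0.693 in DKD, and *TRA2B* fell from 137 ± 3.17 to 13.3 ± 0.856 in TRA2B KD and 22.4 ± 4.72 in DKD (SD, n = 3). In NCI-H23, *TRA2A* fell from 105 to 6.84 and 21.5 TPM and *TRA2B* from 92.2 to 9.75 and 23.3 TPM in the same groups. *TRA2A* and *TRA2B* were thus left at 20.5% and 25.2% of the control mean in DKD. The paralog not targeted was higher in every single knockdown library than in every control library of its line. In A549, *TRA2A* was at 97.4 TPM in TRA2B KD. *TRA2B* was at 163 TPM in TRA2A KD, which was not called (adjusted p = 0.386 in limma). In NCI-H23 they were at 156 and 136 TPM in the same groups. A Cas9 cut need not lower the mRNA, but *TRA2A* fell in TRA2A KO to 62.9% of control in LN229 and 33.2% in LN319, and *TRA2B* fell in TRA2B KO to 66.0% and 35.1%. The paralog not targeted was not higher in every knockout. In Luc TRA2A KO, *TRA2B* was at 251 TPM in LN229 and 104 in LN319, against 222 and 87.6 in Luc Control KO. In Luc TRA2B KO, *TRA2A* was at 169 against 109 TPM in LN229. In LN319 it was at 90.5 against 107 TPM, with every knockout library below every control library. In TRA2B-OE Control KO, *TRA2B* was at 832 TPM in LN229 and 765 TPM in LN319, against 222 and 87.6 in Luc Control KO, and the transgene may be counted with the gene. On the TRA2B-OE background of LN229, *TRA2A* was at 80.2 TPM in Control KO and 69.9 in TRA2A KO, with overlapping libraries. In LN319 it was at 91.1 and 48.1 TPM in these groups.

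The lines were also checked against marker genes. *KRT8* and *KRT18* were at 445 TPM or more in every A549 and NCI-H23 library, but *EPCAM* stayed at or below 3.77 TPM in both, and *CDH1* at or below 2.47 in NCI-H23. LN229 expressed *NES* (213 to 286 TPM) and *SOX2* (20.4 to 90.8), whereas LN319 had *SOX2* at 316 to 490 TPM with *OLIG2* at or below 0.14, *S100B* at or below 1.07 and the epithelial gene *CDH1* at 116 to 150. *GFAP* reached no more than 5.17 TPM in any library. *VIM*, listed with the glial markers, was at 835 TPM or more in every library of all 4 lines. *KRT8* and *KRT18* were also present in LN229 and LN319, at 29.2 to 189 TPM, and *KRT19* was at or below 0.604 TPM in NCI-H23. Of the leukocyte markers, *PTPRC* and *CD3E* had medians of 0.213 TPM or less in all 4 lines, whereas *CD68*, a lysosomal gene of macrophages that other cells also express, had medians of 7.42 to 26.7 TPM. The endothelial markers *PECAM1*, *VWF* and *CDH5* had medians of 0.448 TPM or less. Of the fibroblast markers, *COL1A1* ran from 4.29 to 105 TPM over all libraries, and *DCN* and *PDGFRB* had medians of 2.95 TPM or less. Replicate 3 of A549 Control KD stood apart, with a median correlation of 0.837 with the other libraries of its line, and replicate 1 of LN229 Luc Control KO decided calls that are given below with and without it.

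The clearest change was in *SRPK1*, the cytoplasmic kinase with broad activity on RS domains, and it came with loss of both paralogs. In A549, *SRPK1* was at 34.8, 35.3 and 50.01 TPM in Control KD, at 34.3, 28.1 and 34.05 in TRA2A KD, at 24.7, 28.1 and 28.0 in TRA2B KD and at 14.6, 14.4 and 13.3 in TRA2A/B DKD. All 3 DKD libraries lay below all 9 others. *SRPK1* fell by 1.56 on the log2 scale (SE 0.129, adjusted p = 1.12e-05), to 35.2% of the control mean. It was the only one of 7 kinases tested that was called, in a comparison in which 30.6% of all 16405 genes were called. At TRA2B KD alone the difference was -0.46 (SE 0.129, 95% interval -0.75 to -0.18), which did not pass the correction (adjusted p = 0.212 in limma), and at TRA2A KD it was -0.15 (SE 0.129). Replicate 3 of the control was the highest at 50.01 TPM. Without it, the log2 fold change in DKD was -1.46, the smallest of 14 alternatives.

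NCI-H23 showed the same direction. There, *SRPK1* was at 68.3, 66.1 and 70.6 TPM in Control KD, at 58.1, 76.1 and 56.6 in TRA2A KD, at 63.9, 70.8 and 65.7 in TRA2B KD and at 22.8, 30.3 and 31.3 in TRA2A/B DKD. Again the 3 DKD libraries were below the other 9, while the single knockdowns overlapped with the control. *SRPK1* fell by 1.45 on the log2 scale in DKD (SE 0.144, adjusted p = 1.77e-05), to 41.2% of the control mean, and the fold change was between -1.54 and -1.29 over 14 alternatives. In that comparison 43.2% of 16293 genes were called. The differences at TRA2A KD (-0.10, SE 0.144) and TRA2B KD (-0.15, SE 0.144) did not pass. In bulk samples, fewer cells that express a gene and less of its RNA per cell cannot be told apart.

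The fall was larger than the sum of the single effects. Those effects are not of 1 paralog lost with the other constant, because the other was at a higher level in each single knockdown. Non-additivity, the log2 change in DKD minus those of both single knockdowns, was -0.94 for *SRPK1* in A549 (SE 0.183, 95% interval -1.35 to -0.54, adjusted p = 0.00723) and -1.20 in NCI-H23 (SE 0.203, 95% interval -1.65 to -0.75, adjusted p = 0.00215). It was called for *SRPK1* alone among 7 kinases tested in A549 and 6 in NCI-H23, where 14.7% and 21% of all genes were called. In A549 the value on TPM without further scaling was -0.63 (adjusted p = 0.0697), a setting under which the median of all genes went from -0.05 to 0.26. Under that setting *SRPK2* was called in place of *SRPK1* (0.54, adjusted p = 0.0284 in limma). Of 19 alternatives at the same threshold, 18 kept the call in A549 and 19 that in NCI-H23, and a minimum fold of 2 would remove the call in A549. The estimates of the 2 lines come from separate fits and were not tested against each other. *TRA2A* and *TRA2B* were themselves less reduced in DKD than in their own single knockdowns. In NCI-H23 they were at 21.5 against 6.84 TPM and at 23.3 against 9.75 TPM. In A549 the means were 10.4 against 7.18 TPM, with overlapping libraries, and 22.4 against 13.3 TPM. Their non-additivity in NCI-H23, 1.00 and 0.63, also takes in the higher level of each under knockdown of the other.

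Its paralog *SRPK2*, which shares the kinase fold and many substrates, did not follow. In A549, *SRPK2* was at 31.2, 31.0 and 37.1 TPM in Control KD and at 38.8, 36.3 and 36.1 in DKD, with overlapping groups and a log2 fold change of 0.09 (SE 0.0892, 95% interval -0.11 to 0.29). In NCI-H23 it was at 21.2, 28.3 and 23.9 TPM in the control and at 30.3, 29.2 and 36.2 in DKD, with the groups apart and a log2 fold change of 0.23 (SE 0.0901, adjusted p = 0.0616) that missed the threshold and passed it under 5 of 14 alternatives. The ratio of both levels within a library does not depend on scaling. *SRPK1* over *SRPK2* was 1.12, 1.14 and 1.35 in A549 Control KD and 0.376, 0.397 and 0.369 in DKD. It was 3.22, 2.34 and 2.95 in NCI-H23 Control KD and 0.751, 1.04 and 0.864 in DKD. *SRPK1* thus passed from the more abundant of the pair to a level below *SRPK2* in all 3 A549 DKD libraries and in 2 of 3 in NCI-H23. Of the single knockdowns, TRA2B KD in A549 had ratios of 0.865, 0.911 and 1.02, below all 3 controls.

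**Figure D2:**
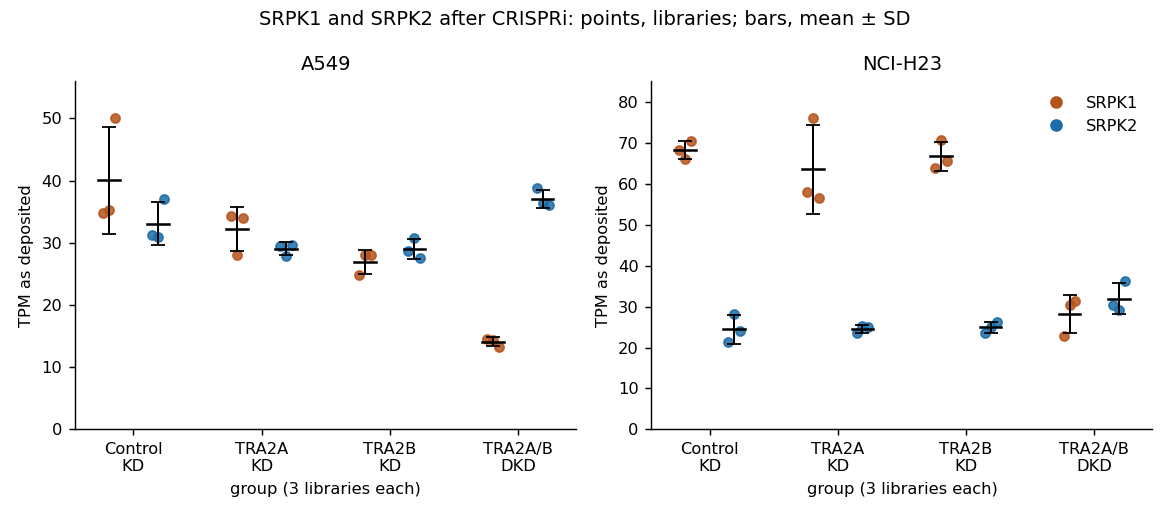
TPM as deposited of *SRPK1* and *SRPK2* in A549 and NCI-H23, with points for the 3 libraries of a group and bars for mean ± SD. In DKD, *SRPK1* sits at 13.3 to 14.6 TPM in A549 and 22.8 to 31.3 in NCI-H23, below every other group, while *SRPK2* does not fall.

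The CLK family showed smaller differences in the same cells. *CLK1*, an autoregulated kinase whose pre-mRNA keeps introns or skips exon 4, was at 18.4, 27.2 and 27.0 TPM in NCI-H23 Control KD and at 44.5, 26.7 and 40.5 in DKD. It rose by 0.45 on the log2 scale (SE 0.165, adjusted p = 0.0463), although DKD replicate 2 lay within the control range. With *SRPK1* it made 2 kinases called of 6 tested, beside 43.2% of all genes. The call was made under 7 of 14 alternatives. Without DKD replicate 1 the fold change was 0.32 (adjusted p = 0.159), without control replicate 1 it was 0.31 (adjusted p = 0.164), without control replicate 2 it was 0.52 (adjusted p = 0.0511), and without DKD replicate 3 it was 0.43 (adjusted p = 0.113). *CLK2* (0.42, SE 0.165, adjusted p = 0.0589) and *CLK4* (0.34, SE 0.151, adjusted p = 0.0926) lay above the control in every DKD library on TPM as deposited without passing. After scaling, the groups of *CLK4* overlapped. In A549, *CLK1* was at 23.2, 25.1 and 16.4 TPM in the control and 30.5, 26.5 and 41.7 in DKD, with a log2 fold change of 0.53 (SE 0.251, adjusted p = 0.138). *CLK3* was not called in either line (0.28 in A549 and -0.11 in NCI-H23 for DKD). Mitochondrial transcripts made up 23.1 to 31.9% of TPM in NCI-H23 Control KD and 19.3 to 28.3% in DKD, and their part in these values was not tested.

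In the single knockdowns, limma called 0 kinases. In A549 TRA2A KD 0.207% of all genes were called, in A549 TRA2B KD 0.341%, in NCI-H23 TRA2A KD 0.976% and in NCI-H23 TRA2B KD 0.196%. At an unadjusted p under 0.05, only *SRPK1* in A549 TRA2B KD was found among the kinases of these 4 comparisons. The kinases' median log2 fold change in A549 was -0.04 with TRA2A KD and 0.20 with TRA2B KD, where the median over all genes was 0.03 both times. In NCI-H23 it was 0.05 and 0.04, where that over all genes rounded to 0. Intervals were wide in A549, where that of *CLK2* in TRA2B KD ran from -0.17 to 1.07.

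**Figure D3:**
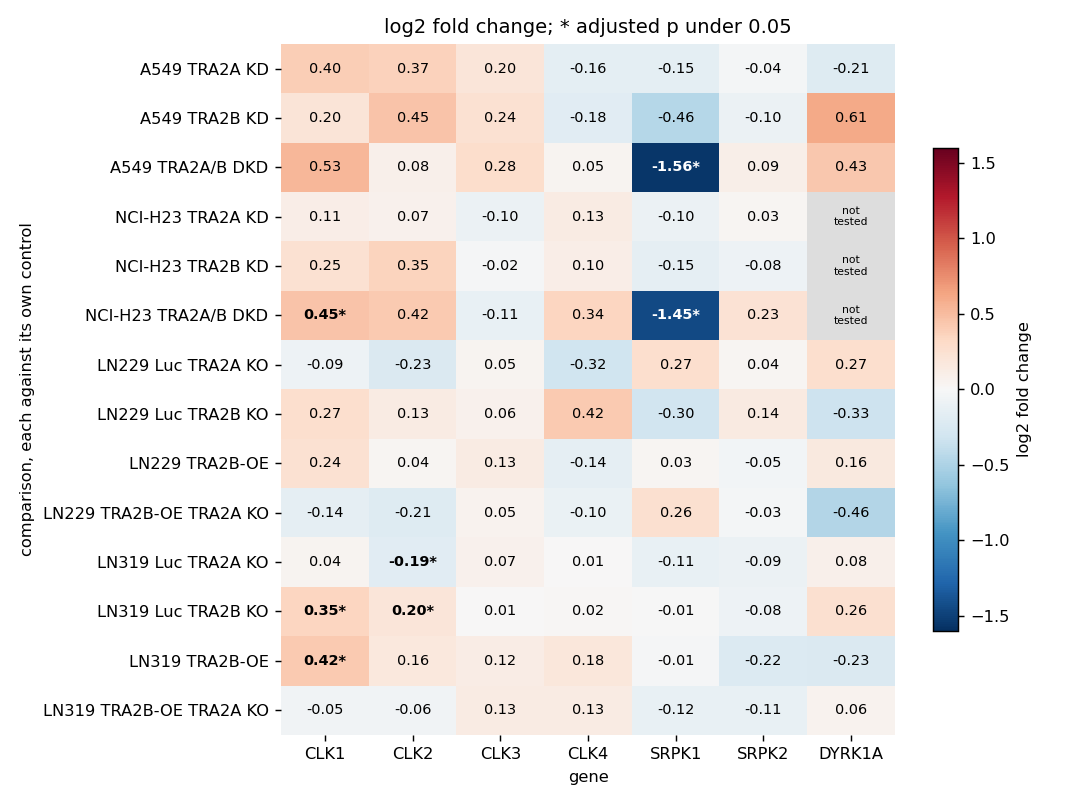
Log2 fold change of each kinase (columns) in each of the 14 comparisons (rows), with an asterisk where the adjusted p was under 0.05 and grey where the gene was not tested. The only values beyond -1 are those of *SRPK1* in both DKDs, and the other called values lie between -0.19 and 0.45.

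In LN319, the changes were in *CLK1* and *CLK2*, nuclear kinases that mobilise SR proteins from speckles. *CLK1* was at 63.7, 61.0 and 56.5 TPM in Luc Control KO, at 64.8, 59.0 and 58.0 in Luc TRA2A KO and at 90.0, 81.2 and 77.8 in Luc TRA2B KO. TRA2B KO libraries were all above the others, whereas TRA2A KO and control overlapped. *CLK1* rose by 0.35 with TRA2B KO (SE 0.0725, adjusted p = 0.00200). *CLK2* was at 135, 136 and 121 TPM in the control, 118, 113 and 104 in TRA2A KO and 162, 161 and 161 in TRA2B KO, and the 3 groups did not overlap. It rose by 0.20 with TRA2B KO (SE 0.0444, adjusted p = 0.00325) and fell by 0.19 with TRA2A KO (SE 0.0444, adjusted p = 0.0151). Both rises were called under 14 of 14 alternatives at the same threshold, and neither reaches a minimum fold of 2. The fall was called under 9 of 14, and was lost without control replicate 1 (-0.15, adjusted p = 0.0644), control replicate 2 (-0.18, adjusted p = 0.0531) or TRA2A KO replicate 3 (-0.17, adjusted p = 0.0668).

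These counts are 2 of 7 kinases with TRA2B KO, where 42.6% of 19303 genes were called, and 1 of 7 with TRA2A KO, where 14.3% were. A share of the kinases below or near that of all genes is not a result about the family. Mitochondrial transcripts made up 18.3 to 20.6% of TPM in Luc TRA2B KO, 13.2 to 15.0% in Luc TRA2A KO and 12.1 to 12.8% in Luc Control KO, and their part in the rise of *CLK1* and *CLK2* was not tested. *SRPK1* was not called with TRA2B KO in LN319. It was at 41.1, 46.7 and 40.5 TPM in the control and 45.4, 45.1 and 46.4 after the knockout, with a log2 fold change of -0.01 (SE 0.0652, 95% interval -0.15 to 0.13). *CLK3*, *CLK4*, *SRPK2* and *DYRK1A* had log2 fold changes between -0.09 and 0.26 in these 2 comparisons, and none was called.

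*CLK1* was also higher with *TRA2B* overexpression in LN319. The level of *CLK1* in TRA2B-OE Control KO was 93.3, 84.8 and 79.6 TPM, above all 3 Luc Control KO libraries, and it rose by 0.42 (SE 0.0725, adjusted p = 0.0111). Without TRA2B-OE replicate 1 the fold change was 0.41 and missed the threshold (adjusted p = 0.0517), and the call held under 12 of 14 alternatives. Mitochondrial transcripts made up 13.5 to 14.7% of TPM in TRA2B-OE Control KO against 12.1 to 12.8% in Luc Control KO, and their part in this value was not tested. *CLK2*, at 163, 153 and 150 TPM, lay above the control with 0.16 (SE 0.0444, adjusted p = 0.0551). Loss and gain of *TRA2B* were compared with the same Luc control libraries, and *CLK1* rose in both. *TRA2A* was lower in both groups, at means of 90.5 TPM in Luc TRA2B KO and 91.1 in TRA2B-OE Control KO. In Luc Control KO it was at 107 TPM, with every control library above every library of both groups. Its part in the rise of *CLK1* was not tested. In TRA2B-OE against Luc, 4.31% of all genes were called, and 1 of 7 kinases. *TRA2A* KO on the TRA2B-OE background called 0 of 7 kinases in limma, none at an unadjusted p under 0.05, with 2.77% of all genes called.

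In LN229, limma called 0 of 7 kinases in each of 4 comparisons. All genes were called at 3.79% in Luc TRA2A KO, 0.557% in Luc TRA2B KO, 1.03% in TRA2B-OE and 6.05% in TRA2B-OE TRA2A KO, and 3, 3, 1 and 1 kinases had an unadjusted p under 0.05. *CLK4*, the kinase closest in sequence to *CLK1*, was at 29.0, 20.7 and 20.4 TPM in Luc Control KO, at 19.6, 18.4 and 16.7 in TRA2A KO and at 30.4, 32.0 and 33.4 in TRA2B KO. *SRPK1* was at 28.4, 36.4 and 38.6 in the control, at 37.3, 38.9 and 46.4 in TRA2A KO and at 26.9, 28.1 and 31.1 in TRA2B KO. For both kinases, control replicate 1 lay nearer the TRA2B KO libraries than the other controls did. Without that library, TRA2B KO called 3 kinases and 3858 genes in place of 0 and 103: *CLK1* rose by 0.32 (adjusted p = 0.0227), *CLK4* rose by 0.58 (adjusted p = 0.00407) and *SRPK1* fell by 0.44 (adjusted p = 0.00895). With it, their differences were 0.27 (SE 0.0797), 0.42 (SE 0.122) and -0.30 (SE 0.112), and no other library left out gave a call. *SRPK1* was lowest in replicate 1 in all 5 groups of LN229, and with the replicate number as a block *CLK4* (adjusted p = 0.0334) and *SRPK1* (adjusted p = 0.0466) were called in TRA2B KO.

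**Figure D4:**
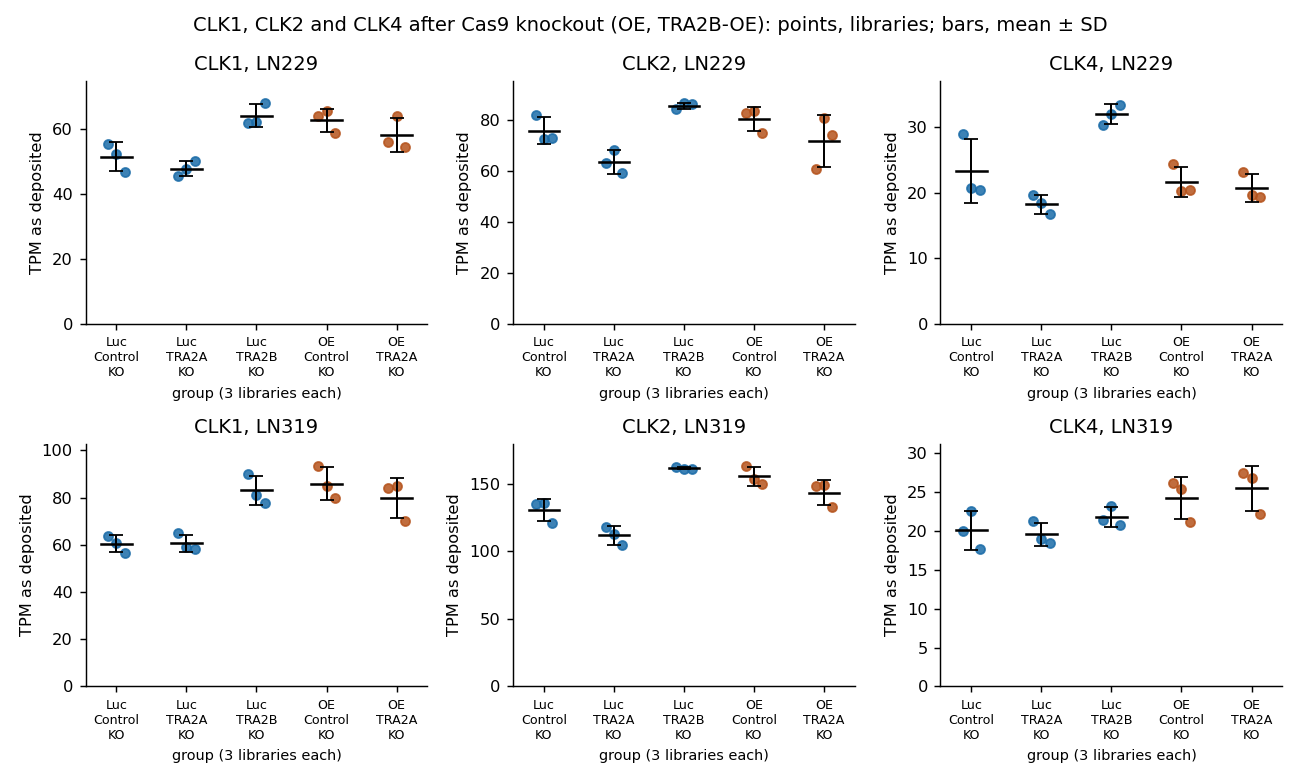
TPM as deposited of *CLK1*, *CLK2* and *CLK4* in the 5 groups of LN229 and LN319, with points for libraries and bars for mean ± SD, blue for Luc and orange for TRA2B-OE. *CLK1* and *CLK2* in Luc TRA2B KO lie above Luc TRA2A KO in both lines, and *CLK4* does so in LN229 (30.4 to 33.4 against 16.7 to 19.6 TPM) with little separation in LN319.

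The 2 knockouts can be set against each other without the control. This contrast, TRA2B perturbation minus TRA2A perturbation, was added after the data had been seen. In LN229 it called 4 of 7 kinases: *CLK1* was higher with TRA2B KO by 0.35 (SE 0.0797, adjusted p = 0.00560), *CLK2* by 0.36 (SE 0.0974, adjusted p = 0.0135) and *CLK4* by 0.74 (SE 0.122, adjusted p = 0.00125), and *SRPK1* was lower (-0.57, SE 0.112, adjusted p = 0.00272). The call of *CLK2* in LN229 held under 12 of 14 alternatives. It was lost without TRA2A KO replicate 3 (0.31, adjusted p = 0.0591 in limma) and with no filter on low values (0.34, adjusted p = 0.0715 in limma). In LN319 the contrast called 2 of 7, *CLK1* (0.31, SE 0.0725, adjusted p = 0.00365) and *CLK2* (0.38, SE 0.0444, adjusted p = 2.35e-05). For *CLK1* and *CLK2* every TRA2B KO library was above every TRA2A KO library in both lines. Of all genes, 34.1% were called in LN229 and 47.2% in LN319, so that calls were common in general. *CLK4* in LN319 had a difference of 0.01 (95% interval -0.18 to 0.20), and *SRPK1* there 0.10 (95% interval -0.04 to 0.24). With the knockdowns, limma called 0 kinases in A549, where 0.811% of genes were called and *SRPK1* alone had an unadjusted p under 0.05 (0.0353), and 0 in NCI-H23, where 1.9% of genes and no kinase at an unadjusted p were.

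**Figure D5:**
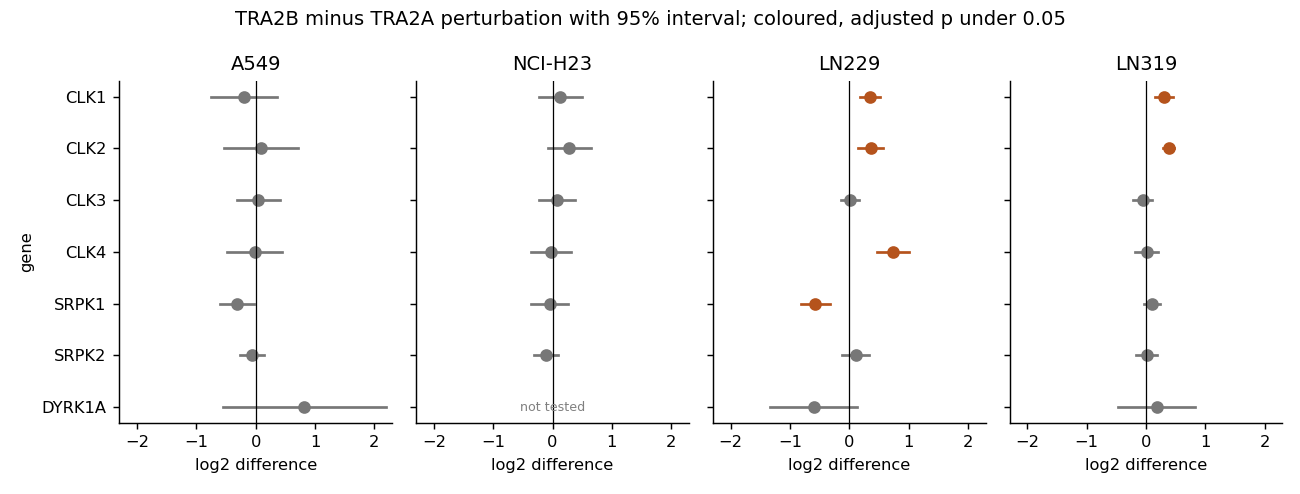
Log2 difference between the TRA2B and the TRA2A perturbation for each kinase in each cell line, with 95% intervals and colour where the adjusted p was under 0.05. In LN229, *CLK1*, *CLK2* and *CLK4* lie to the right of 0 and *SRPK1* to the left, and in LN319 *CLK1* and *CLK2* lie to the right.

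Whether TRA2B-OE alters the response of a kinase to TRA2A KO was tested as the difference of both responses. The *TRA2A* mRNA was not lowered equally on both backgrounds. In LN229 it went from 109 to 68.8 TPM in Luc cells and from 80.2 to 69.9 in TRA2B-OE cells. In LN319 it went from 107 to 35.5 TPM and from 91.1 to 48.1. The part of this in the differences was not tested. Limma called 0 of 7 kinases in LN229, where 0% of genes were called (1068 genes had an unadjusted p under 0.05 and none of them a kinase), and 0 of 7 in LN319, where 0.0207% of genes were called and no kinase had an unadjusted p under 0.05. The difference for *CLK2* in LN319, the kinase that fell with TRA2A KO in Luc cells, was 0.12 (SE 0.0628, 95% interval -0.01 to 0.26), an interval that holds 0 as well as the full size of that fall. *CLK2* was at 163, 153 and 150 TPM in TRA2B-OE Control KO and at 148, 149 and 133 in TRA2B-OE TRA2A KO.

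*DYRK1A* was measured poorly. It reached 1 TPM in 7 of 12 A549 libraries, 3 of 12 of NCI-H23, 13 of 15 of LN229 and 15 of 15 of LN319, and was therefore not tested in NCI-H23, where it ran from 0.263 to 2.18 TPM. Its highest group mean was 3.41 ± 0.7495 TPM (SD, n = 3) in LN319 Luc TRA2B KO, from 4.12, 3.49 and 2.63 TPM, against 2.35, 3.14 and 2.34 in the control. It was called in none of its comparisons, and its intervals spanned more than those of the other kinases: in A549 DKD the log2 fold change was 0.43 with a 95% interval of -0.94 to 1.81. A difference of that size was not detectable at these levels. Without the filter on low values its difference in NCI-H23 DKD was 0.20 (adjusted p = 0.924).

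*CLK3* and *SRPK2* were likewise not called in any of the 14 comparisons. *CLK3*, which shares the CLK substrates, ranged from 24.6 to 80.0 TPM over all libraries, and its log2 fold changes lay between -0.11 and 0.28. A549 spanned 28.2 to 44.3 TPM and LN319 44.9 to 61.8 TPM, narrower than the ranges of *CLK2* there (21.6 to 48.7 and 104 to 163). In total, 95 fold changes of the kinases were tested in the 14 comparisons and 7 were called, 4 of them higher and 3 lower. These calls came from comparisons in which 4.31% to 43.2% of all genes were called. The total is therefore not a result about the family.

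Across all 54 libraries, with each line centred on its own mean, *CLK1* and *CLK2* varied together (Pearson r = 0.749, and 0.683, 0.894, 0.693 and 0.815 within A549, NCI-H23, LN229 and LN319). *CLK1* and *SRPK1* varied in opposite directions (r = -0.545) in 3 of the lines but not in LN319 (r = 0.117), and *CLK4* and *SRPK1* had r = -0.942 within LN229. These values describe libraries that share groups, scaling and composition. Among 13381 genes kept in every line, those with the pattern most like *SRPK1* were *MSH6* (r = 0.954), *SMC2* (0.951) and *CLSPN* (0.934). Over the 48 libraries without DKD, these were 0.832, 0.720 and 0.752. For *CLK1* they were *IP6K2* (0.756), *RXRB* (0.754) and *SRSF5* (0.746), and those named for *CLK2* were *RAB24* (0.832) and *CDK5RAP3* (0.830). The closest genes of *CLK3* (*PPP2R5B*, 0.665), *CLK4* (*GSTA4*, 0.733) and *SRPK2* (*CD99L2*, 0.720) were less alike.

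The kinases act within a cycle of other kinases, phosphatases and substrates, which was followed with 5 lists. Of 18 RS-domain substrates tested in A549 DKD, 3 rose and 6 fell (median -0.20, against 0.03 over all genes), and in NCI-H23 DKD 2 rose and 12 fell (median -0.34, against 0.02), beside the 30.6% and 43.2% of all genes called. *SRSF1*, the classic SRPK1 substrate, fell by 0.94 in A549 (SE 0.0955, 239 to 132 TPM) and by 0.84 in NCI-H23 (SE 0.0709, 211 to 132 TPM). *LBR*, a nuclear envelope protein with an RS region, fell by 0.85 (SE 0.115) and by 1.57 (SE 0.139). Of 8 phosphatase genes, 1 rose and 3 fell in A549, and 2 rose and 3 fell in NCI-H23. *PPM1G*, a phosphatase bound to splicing complexes, fell by 0.77 (SE 0.108) and by 0.99 (SE 0.0698).

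Of 5 import, chaperone and scaffold partners, 1 rose and 1 fell in A549 DKD and 1 rose and 2 fell in NCI-H23 DKD. The counts of these lists stand beside 30.6% of all genes called in A549 DKD and 43.2% in NCI-H23 DKD, and several lie near those shares. *FAM53C*, a binding partner of DYRK1A, rose by 1.14 in A549 (SE 0.112, 20.7 to 47.3 TPM) and by 0.69 in NCI-H23 (SE 0.0724, 29.4 to 52.9 TPM). Other kinases of the splicing machinery were called in 4 of 9 tested in A549 DKD, with 3 higher and 1 lower, and in 5 of 10 in NCI-H23 DKD, with 3 higher and 2 lower. The 3 that rose were in both lines relatives of DYRK1A, named here after their values were seen: *DYRK1B* (0.67 and 0.95), *DYRK3* (0.90 and 0.74) and *DYRK4* (0.53 and 0.94). *DYRK1B* was the nearest to the threshold, with an adjusted p of 0.04997 in A549. *DYRK2*, a further relative on that list, was called in neither DKD. Of 9 DREAM and MuvB subunits, the complex downstream of DYRK1A, 3 fell in A549 DKD, and 2 rose and 2 fell in NCI-H23 DKD, where *TFDP1* fell by 1.05 (SE 0.0812). The single knockdowns of both lines called none of these genes in limma.

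In LN319 Luc TRA2B KO, the lists moved in both directions: of 19 RS-domain substrates 6 rose and 7 fell, of 8 phosphatase genes 6 fell, of 5 partners 1 rose and 4 fell, of 9 other kinases 3 rose and 1 fell, and of 9 DREAM and MuvB subunits 1 rose and 4 fell, beside 42.6% of all genes. *AHSA1*, an HSP90 cochaperone, fell by 0.52 (SE 0.05005), *PRPF4B*, a kinase of the tri-snRNP, rose by 0.39 (SE 0.0493), *SRRM2*, a speckle scaffold, rose by 0.44 (SE 0.0559), and *PPM1G* fell by 0.64 (SE 0.0844). In LN319 Luc TRA2A KO, 4 of 19 substrates fell, 2 of 9 other kinases and 1 of 9 DREAM and MuvB subunits rose, and 0 of 8 phosphatase genes and 0 of 5 partners were called in limma, beside 14.3% of all genes. The comparisons of LN229 against Luc Control KO called 2 list genes in all, *DYRK2* (0.49) and *DYRK3* (0.49), both higher in Luc TRA2A KO.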

How the data were processed

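Gene-level TPM in the deposited tables were made by the authors with kallisto 0.48.0 and the Gencode v34 annotation (GRCh38); the submitters' processing notes also name STAR 2.7.3. TPM keep no depth, so the precision is that of the 3 replicates. The sums were 928908 to 964610 TPM per library, and 0 libraries were identical. Limma-voom, the test of the study, is made for counts and was not repeated on TPM. TPM of a line were scaled with TMM factors computed without weights (trims of 30% for ratios and 5% for abundances), and a gene was kept if 4 or more libraries of the line had 1 TPM or more. Limma 3.58.1 (R 4.3.3) was fitted to log2(TPM + 0.1) with all libraries of a line, a mean-variance trend and two-sided tests, with Benjamini-Hochberg adjustment over all genes kept. The fit was tested on simulated data. Groups came from the sample labels. Members and lists were chosen with earlier results of these data known. Members and the targeted genes could be named in every comparison, list genes only as the 4 called with the smallest adjusted p per comparison unless stated, and for likeness the 3 genes with the highest Pearson r per member, of which 1 is not reported here. The alternatives were pseudocounts of 0.5 and 1, a minimum of 5 TPM, no filter, a minimum fold, quantile normalization, TPM without scaling, only the groups compared, a replicate block and leaving out each library. Sequences came from GENCODE v44 (GRCh38). Figures were drawn with matplotlib 3.10.9 in Python 3.11.15.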

Additional observations from a re-analysis of the deposited data

Results flagged for a closer look

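*SRPK1* differed between the double and the single knockdowns in a test of the difference itself. In A549, its log2 change in TRA2A/B DKD minus the sum of those in TRA2A KD and TRA2B KD was -0.94 (SE 0.183, adjusted p = 0.00723 in limma), from effects of -1.56, -0.15 and -0.46. In NCI-H23 the same difference was -1.20 (SE 0.203, adjusted p = 0.00215 in limma), from effects of -1.45, -0.10 and -0.15. All 3 effects of a line share its control libraries, and in each single knockdown the paralog not targeted was at a higher level than in the control. *SRPK1* was the only kinase with such a call in either line, where 14.7% and 21% of all genes had one. On TPM without further scaling, the call in A549 passed from *SRPK1* to *SRPK2*.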

How the results depend on the processing

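Over 2218 recomputed values of the kinases, 0 reversed a call, 17 lost and 28 gained one, 58 others moved by more than their error and 2115 did neither. The numbers of kinases called that moved were as follows. A minimum fold of 2 left 1 kinase in NCI-H23 TRA2A/B DKD and 0 in A549 non-additivity, in LN319 Luc TRA2A KO, Luc TRA2B KO and TRA2B-OE, and in the TRA2B minus TRA2A contrasts of LN229 and LN319. In NCI-H23 DKD, where 2 were called, there was 1 when other groups were left out of the fit or with no filter, 4 with quantile normalization, and 5 with a minimum of 5 TPM or with TPM as deposited. In LN319 TRA2B-OE, where 1 was called, there were 0 with only the groups compared, and 2 with quantile normalization, a minimum of 5 TPM or TPM as deposited. In LN319 Luc TRA2A KO there were 0 with only the groups compared or quantile normalization. Leaving out 1 library gave 0 to 3 in LN229 Luc TRA2B KO (3 to 3858 genes), 0 to 1 in LN319 Luc TRA2A KO, 0 to 1 in LN319 TRA2B-OE (138 to 1742 genes, 138 without TRA2B-OE Control KO replicate 1), 1 to 3 in NCI-H23 DKD and 3 to 5 in the LN229 contrast. The cause was not tested. With TPM as deposited, the median of all genes lay between -0.12 and 0.26 over all comparisons. This setting raised the share of higher calls to 57.0% in A549 DKD, 63.0% in NCI-H23 DKD and 56.4% in LN319 Luc TRA2B KO.

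The labels do not say what a replicate number shares, and the samples were not treated as paired. Pairing was examined on the deviations of each library from its group mean, between libraries of different groups. For these deviations, same-numbered libraries had median correlations of 0.03, -0.01, 0.02 and 0.02 in A549, NCI-H23, LN229 and LN319. In the same order, 5 of 12, 7 of 12, 8 of 15 and 5 of 15 libraries correlated best with a library of their own number. *SRPK1* in LN229 was lowest in replicate 1 and *CLK1* in LN319 lowest in replicate 3 in all 5 groups. With the replicate block, 2 kinases were called in LN229 Luc TRA2B KO (1321 genes in place of 103) and 3 in LN319 TRA2B-OE (1923 genes in place of 832), *CLK1* in NCI-H23 DKD was lost (adjusted p = 0.0504) and *SRPK2* there gained (adjusted p = 0.0431). TPM give no depth, so differences of *DYRK1A*, near 1 TPM, were limited by replicate spread.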
